A study of Mus musculus with 6 samples.

Results

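The genes described here encode RNA polymerase I, which transcribes ribosomal RNA, and the factors that process that RNA and assemble it with ribosomal proteins. They were taken by symbol: names beginning with Nop, Utp, Rrp or Nol and a digit, Polr1 or Bop1, the WD-repeat genes Wdr12, Wdr43, Wdr74 and Wdr75, and 14 further genes (Ncl, Npm1, Fbl, Dkc1, Gar1, Nhp2, Nolc1, Ebna1bp2, Pes1, Rrs1, Gnl2, Gnl3, Grwd1 and Ubtf). The rule found 58 of the 24421 listed symbols, and 57 of them had enough reads for testing. The remaining gene, Nol4, a neuronal gene caught by its name, had 0 reads in all 6 libraries. Each of the 57 passed the low-count filter in both groups, with control means between 5.03 CPM (read counts relative to library size, adjusted with TMM composition factors) for Nol3 and 906 CPM for Ncl.

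Ribosomes are made in the nucleolus. RNA polymerase I copies the ribosomal DNA into a long precursor, which is cut, chemically modified by small nucleolar ribonucleoproteins (snoRNPs) and folded into the small (40S) and large (60S) subunits by a large number of transiently bound proteins. The assembly factors are usually transcribed together, and the MYC transcription factor is a well-known activator of many of them in growing cells.

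Primary mouse liver sinusoidal endothelial cells, the fenestrated endothelium of the liver, were profiled by polyadenylated RNA sequencing in 3 control and 3 pressure-exposed samples. All 6 came from livers of wild genotype and were picked with beads against CD146, an endothelial surface protein, kept overnight on collagen I and deprived of serum for 6 h. For 8 h the pressure group then received a cyclic hydrostatic load from 101 to 135 kPa absolute, at 0.01 Hz. For the controls no time or handling over those hours is labelled, so that culture time and pressure cannot be told apart. The labels give 1 batch label for all samples and no strain, age or sex, and nothing in them says that the samples of a group are separate cultures or animals. The p-values therefore reflect the variation among these 6 samples alone, and part of it may be technical.

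Library totals ranged from 12922959 to 18655749 counts. Among endothelial and sinusoidal markers all 11 were measured, with summed levels of 7495 to 8003 CPM in controls and 5486 to 6633 CPM under pressure, and 7 fell and 1 rose. Of the 8 macrophage markers all were measured as well (4952 to 5395 CPM in controls, 4723 to 5146 CPM under pressure, 2 higher and 2 lower). Hepatocyte markers summed to 35.5 to 43.4 CPM in controls and 52.2 to 59.1 CPM under pressure (3 of 5 tested rose), stellate and mural cell markers to 144 to 154.5 CPM and 161 to 180.1 CPM (2 of 7 tested higher, 2 lower), cholangiocyte markers to 5.22 to 5.28 CPM and 9.22 to 12.1 CPM (3 of 3 tested rose), and lymphocyte markers to at most 3.75 CPM (1 tested, not called). Of the 4 erythroid genes none was tested, and Hbb-bs was at 0 throughout. The part of these other cells in the results was not tested, and in bulk RNA a change in the number of cells of a type and a change in RNA per cell cannot be told apart.

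Transcripts for ribosome assembly were higher after pressure in nearly every functional group. Of the 57 tested genes, 46 rose, 3 fell and 8 were not called (edgeR quasi-likelihood test of pressure against control, adjusted p under 0.05, n = 3 per group). Over all 12892 genes tested, 33.7% were called higher, 35.1% lower and 68.8% in either direction. The median log2 fold change was 0.65 for the 57 genes and -0.015 for all genes, and 16 members rose at least 2-fold, which 9.64% of all genes did. The 3 pressure values lay wholly above the 3 control values for 46 members and wholly below for 3, where 71.9% of all genes showed a separation in one direction or the other. Summed over the set, the level was 5200, 5272 and 5207 CPM in controls 1 to 3 and 10265, 9400 and 9406 CPM in pressure libraries 1 to 3, 1.85 times higher on average. Ncl and Npm1 made up 43.3% of that rise, and without them the ratio was 1.69.

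**Figure D1:**
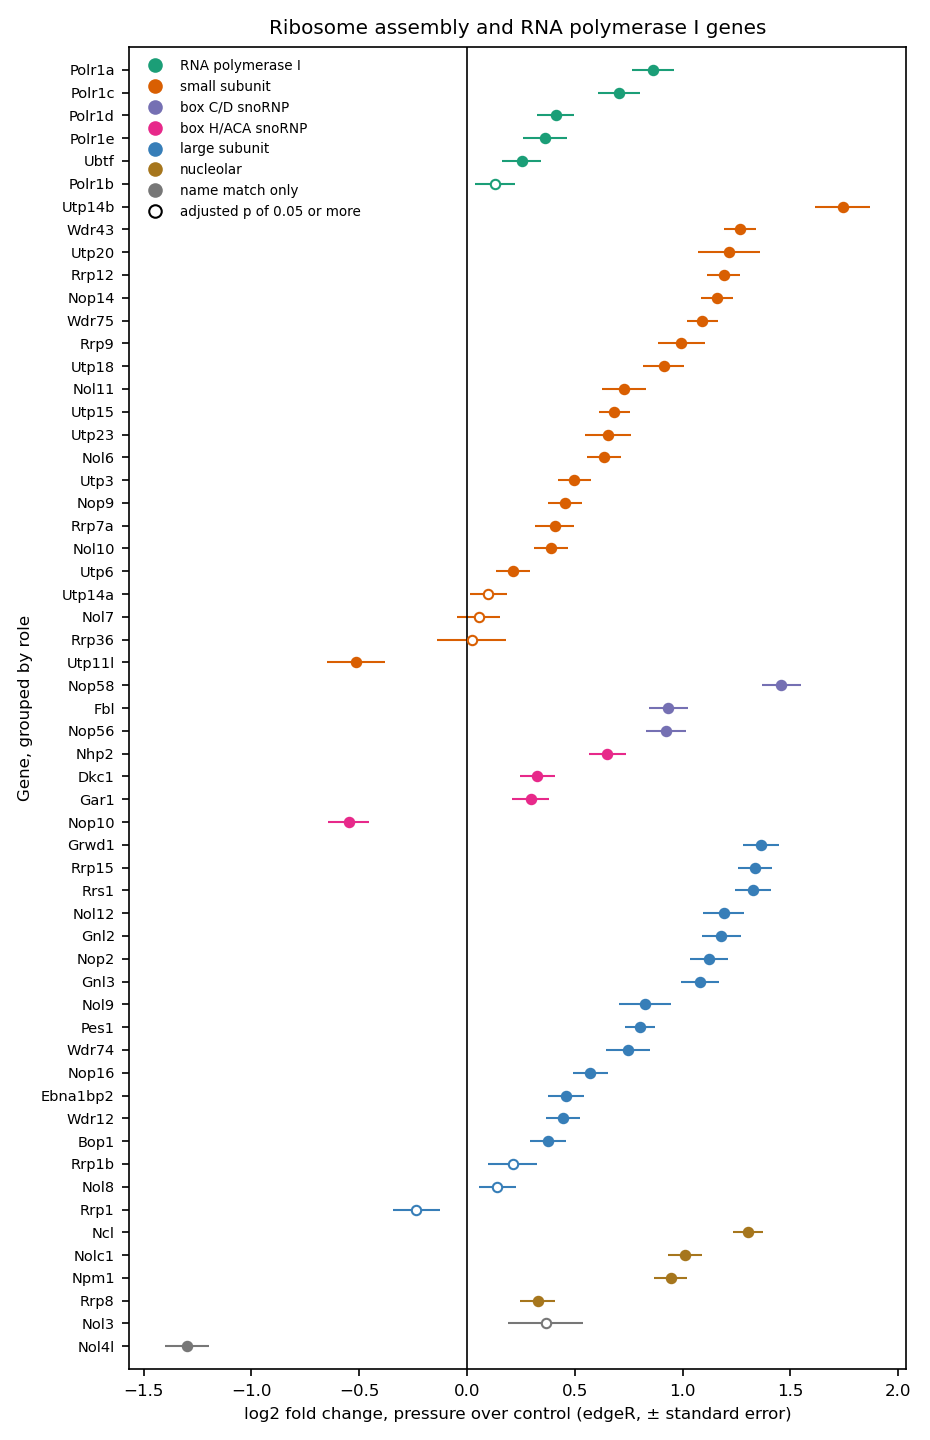
Log2 fold change of pressure over control (horizontal axis, edgeR, ± standard error) for the 57 tested genes (vertical axis), coloured by role; open circles mark genes with an adjusted p of 0.05 or more. Points lie to the right of 0 for 53 genes, and of the filled points only Utp11l, Nop10 and Nol4l lie to the left.

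The start regions of these genes were read from RefSeq (build GRCm38.p6), which held 58 windows for 46 of the 57 tested genes, each from 250 bases before to 50 bases after an annotated start. The motif CACGTG, the E-box that MYC with MAX and other helix-loop-helix proteins can bind, was searched as a palindrome on both strands. It was present for 9 of 46 members (19.6%) and for 11.9% of the 10153 tested genes with a window. The motif was found for 20.4% of 98 other ribosome assembly genes and for 8.09% of all 27025 genes with a window, tested or not. The 9 members with it were Grwd1, Nol11, Nop2, Pes1, Rrp7a, Utp14b, Utp18, Utp20 and Wdr43. All 9 rose, with a median log2 fold change of 1.12, and of the 37 without it 28 rose and 2 fell, with a median of 0.46. The 9 include Utp14b (1.74), whose level is uncertain, and the 37 include Nol4l (-1.30), which is not known as an assembly factor. The difference between the 9 and the 37 was not tested. Among all tested genes, 37.5% of those with the motif and 32.9% of those without were called higher. A match is only a description of the sequence. CCAAT was found for 32.6% of members and 42.8% of tested genes, the palindrome CTCGCGAG for 2.17% of both, and TGACGTCA, the cyclic AMP response element, for none of the members and 3.52% of tested genes.

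Shown are the windows of the 4 genes with the largest rise among those with the motif, leaving out Utp14b, whose window lies at the shared start of Acsl3, and, for contrast, that of Nop58, the largest rise without it. They run 5′ to 3′ on the strand of the gene, in GRCm38.p6, and capitals mark CACGTG. The windows are chr7:45830740-45831039 (minus strand) for Grwd1, chr17:71615965-71616264 (plus) for Wdr43, chr10:88826765-88827064 (minus) for Utp20, chr6:125131633-125131932 (plus) for Nop2 and chr1:59684756-59685055 (plus) for Nop58. The motif begins 34, 17 and 37 bases after the start of Grwd1, Wdr43 and Utp20, and 60 bases before that of Nop2.
Grwd1: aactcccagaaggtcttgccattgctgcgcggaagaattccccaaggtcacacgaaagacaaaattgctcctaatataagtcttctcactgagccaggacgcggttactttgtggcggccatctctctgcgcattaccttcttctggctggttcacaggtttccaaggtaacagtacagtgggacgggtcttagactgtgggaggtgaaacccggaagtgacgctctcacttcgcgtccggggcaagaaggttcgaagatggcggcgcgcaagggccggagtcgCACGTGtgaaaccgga
Wdr43: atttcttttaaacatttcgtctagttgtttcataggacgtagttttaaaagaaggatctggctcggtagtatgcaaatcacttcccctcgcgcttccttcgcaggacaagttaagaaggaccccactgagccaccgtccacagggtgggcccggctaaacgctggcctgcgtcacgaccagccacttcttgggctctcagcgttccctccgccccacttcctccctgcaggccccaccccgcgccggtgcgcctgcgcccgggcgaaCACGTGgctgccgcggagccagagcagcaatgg
Utp20: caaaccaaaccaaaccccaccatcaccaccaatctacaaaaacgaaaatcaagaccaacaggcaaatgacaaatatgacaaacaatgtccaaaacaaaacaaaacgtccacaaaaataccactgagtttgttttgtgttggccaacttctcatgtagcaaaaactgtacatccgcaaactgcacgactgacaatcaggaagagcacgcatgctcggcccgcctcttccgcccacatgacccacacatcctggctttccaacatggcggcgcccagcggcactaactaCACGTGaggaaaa
Nop2: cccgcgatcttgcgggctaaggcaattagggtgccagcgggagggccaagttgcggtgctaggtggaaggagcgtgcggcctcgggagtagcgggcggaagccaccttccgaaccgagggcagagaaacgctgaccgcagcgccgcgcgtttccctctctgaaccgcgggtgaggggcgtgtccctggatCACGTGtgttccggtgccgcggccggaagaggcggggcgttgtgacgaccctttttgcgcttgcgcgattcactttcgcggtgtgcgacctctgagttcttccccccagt
Nop58: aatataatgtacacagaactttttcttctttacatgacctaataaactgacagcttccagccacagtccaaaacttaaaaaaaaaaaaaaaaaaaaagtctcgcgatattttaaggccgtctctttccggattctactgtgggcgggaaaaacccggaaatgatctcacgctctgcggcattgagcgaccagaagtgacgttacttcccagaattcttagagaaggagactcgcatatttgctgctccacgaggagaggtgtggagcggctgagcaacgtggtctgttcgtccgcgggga

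The size of the change depends on how libraries are scaled, because the median over all genes moves by -0.21 (log2) when library totals are used without a composition factor and by -0.11 with upper-quartile factors. Totals alone gave 36 members higher and 4 lower, beside 24.3% of all 12892 genes called higher and 5887 called lower. Upper-quartile factors gave 42 and 4, beside 28.15% of all genes called higher and 5188 called lower. The same 36 genes rose, and the same 3 fell, under all 4 scalings tried. Another 10 (Utp6, Ubtf, Nol10, Bop1, Rrp7a, Gar1, Polr1e, Polr1d, Rrp8 and Dkc1) rose with TMM factors and lost the call with library totals only; for Utp6, Ubtf, Gar1 and Polr1e the upper-quartile factors ended it too.

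With TMM factors most RNA polymerase I genes rose, by less than 2-fold. Of 6 genes, 5 rose, none fell, and the median log2 fold change was 0.39. Over all genes 33.7% were called higher and 35.1% lower. With library totals only the median was 0.17 and 2 of 6 were called higher, beside 24.3% of all genes. Polr1a, the largest catalytic subunit, stood at 98.7, 86.7 and 93.3 CPM in controls 1 to 3 and at 189, 168.5 and 149 CPM in pressure libraries 1 to 3. Its groups were well apart, with pressure library 3 the lowest of the treated (log2 fold change 0.86 ± 0.098, adjusted p = 2.26e-05). Polr1c, a subunit shared with RNA polymerase III, had 31.5, 32.8 and 28.5 CPM in controls and 55.7, 48.0 and 47.6 CPM under pressure (0.70 ± 0.098, adjusted p = 9.13e-05). Polr1d, the partner of Polr1c in both enzymes, went from 74.2, 87.1 and 76.2 CPM to 110.4, 100.7 and 105 CPM (0.41 ± 0.086, adjusted p = 0.00149), and totals alone ended that call (0.20, adjusted p = 0.0551). Polr1b, the other large catalytic subunit, was not called: its 32.6, 29.7 and 30.1 CPM in controls overlapped with 33.0, 36.4 and 31.7 CPM under pressure (0.13 ± 0.093, adjusted p = 0.230). Polr1e, the PAF53 subunit, changed by 0.36 ± 0.10 and Ubtf, the HMG-box protein that keeps ribosomal DNA open, by 0.25 ± 0.092 (adjusted p = 0.0302, lost when control replicate 1, 2 or 3 was left out, with 0.0982 without replicate 1).

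Further polymerase I factors, listed under older symbols or outside the naming rule, gave 7 of 10 higher and 2 lower. The shares over all genes were 33.7% and 35.1%. The largest rise was in Cd3eap, a polymerase subunit that binds Polr1e, from 20.7, 24.4 and 22.6 CPM to 69.5, 60.7 and 66.2 CPM (1.54 ± 0.096). Twistnb, the subunit that contacts the initiation factor Rrn3, changed by 0.91 ± 0.088, and Rrn3 by 0.56 ± 0.079. Subunits of the promoter selectivity factor SL1 went apart, with Taf1d at 1.06 ± 0.13, Taf1a at 0.85 ± 0.097 and Taf1c at 0.53 ± 0.12 higher and Taf1b lower (-0.34 ± 0.11). Leaving out control replicate 2 or 3 ended the call of Taf1b (adjusted p = 0.0529 and 0.0537). Ttf1, the terminator-binding protein of the ribosomal genes, fell from 27.4, 27.5 and 29.9 CPM to 11.6, 12.6 and 14.98 CPM (-1.12 ± 0.11, adjusted p = 1.03e-05), and Znrd1, a small subunit of the enzyme, was not called (0.26 ± 0.11, adjusted p = 0.0601, but 0.0444 with RLE factors and 0.0490 without pressure library 1).

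Small-subunit factors rose in 17 of 21 and fell in 1, with a median of 0.65. Over all genes 33.7% were called higher and 35.1% lower. With library totals only 14 rose and 1 fell, with a median of 0.44, beside 24.3% of all genes called higher. The small-subunit genes build the processome, the large particle that forms on the nascent precursor around the U3 snoRNA. Wdr43, a subunit of its UTP-A module that also serves polymerase I transcription, had 108, 103 and 113 CPM in controls and 269, 258 and 251 CPM under pressure, 2.41-fold higher (1.27 ± 0.073, adjusted p = 3.03e-07). Nop14, a processome core protein, rose from 109, 106 and 104 CPM to 249, 226 and 237 CPM (1.16 ± 0.073, adjusted p = 4.62e-07), and Rrp12, a HEAT-repeat factor of pre-40S export, from 40.4, 40.05 and 38.1 CPM to 92.9, 89.1 and 88.3 CPM (1.19 ± 0.076, adjusted p = 4.89e-07). In these 3 genes the treated libraries differed little among themselves.

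Utp20, a very large helical scaffold protein, showed more spread. Its controls read 96.1, 82.6 and 98.3 CPM and its pressure libraries 255, 224.5 and 163 CPM (1.22 ± 0.14). Wdr75 (1.09 ± 0.072), Rrp9, the U3-specific protein (0.99 ± 0.11), and Utp18 (0.91 ± 0.095) followed, then Nol11 (0.73), Utp15 (0.68), Utp23 (0.65), Nol6 (0.64), Utp3 (0.50), Nop9 (0.45), Rrp7a (0.41), Nol10 (0.39) and Utp6 (0.21, adjusted p = 0.0294). The Utp6 call was lost in 5 of the 6 fits that left out a library (without control replicate 2, adjusted p = 0.117).

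The largest fold in the whole set belonged to Utp14b, a retrogene copy of Utp14a at the Acsl3 locus that is best known from the testis. It was rare, at 6.49, 5.33 and 7.14 CPM in controls and 22.3, 21.1 and 19.8 CPM under pressure (1.74 ± 0.13, 3.35-fold). Its exons overlap those of Acsl3 on the same strand over 244 bases, Acsl3 also rose (0.49, adjusted p = 0.00389), and the deposited counts of Utp14b held fractions in 4 libraries, so its level is uncertain. The parent gene Utp14a was not called, with 52.5, 48.2 and 50.1 CPM in controls and 57.7, 53.8 and 49.9 CPM under pressure (0.099 ± 0.085, adjusted p = 0.320).

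Utp11l, a processome subunit, was the small-subunit gene that fell. It had 62.2, 67.6 and 64.7 CPM in controls and 38.3, 41.1 and 57.4 CPM under pressure, the third treated library standing well above the others (-0.51 ± 0.14, adjusted p = 0.00607, and -0.71 without that library). Rrp36, another early factor, showed the same division: controls at 29.2, 29.4 and 30.3 CPM, pressure libraries 1 and 2 at 24.5 and 26.4 CPM and library 3 at 39.9 CPM. It was not called over all samples (0.021 ± 0.16, adjusted p = 0.912) and was lower without pressure library 3 (-0.22, adjusted p = 0.0382). Nol7 also overlapped between the groups (0.055 ± 0.099, adjusted p = 0.637).

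Grouped by particle, UTP-A genes (Wdr43, Wdr75, Utp15, Nol11, Heatr1 and Cirh1a) rose in 6 of 6, between 0.68 and 1.27. Of the UTP-B genes 5 of 6 rose: Pwp2 by 1.22 ± 0.074, Utp18, Wdr36 by 0.44 ± 0.072, Wdr3 by 0.41 ± 0.089 (adjusted p = 0.0617 with totals alone) and Utp6, while Tbl3 was not called (0.16 ± 0.096). Factors that mature and export the 40S particle later rose in 7 of 8, where 33.7% of all genes rose. Tsr1, a GTPase-like factor, changed by 1.48 ± 0.10, Nob1, the nuclease that makes the final cut, by 1.49 ± 0.10 and the kinase Riok2 by 1.33 ± 0.10, and Ltv1, an export adaptor, was the one not called (0.15 ± 0.089). These particle groupings were made after the values were seen.

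The snoRNP core proteins fall into 2 classes. All 3 box C/D genes, whose particles guide ribose methylation, rose, where 33.7% of all genes were called higher. Nop58, a scaffold of these particles, went from 127, 118 and 133 CPM to 379.7, 348 and 310 CPM (1.46 ± 0.090, adjusted p = 4.31e-07). Fbl, the methyltransferase fibrillarin, had 144, 159.9 and 149 CPM in controls and 292, 257 and 318.5 CPM under pressure (0.93 ± 0.090, adjusted p = 7.21e-06). Nop56, the second scaffold and a paralog of Nop58, had 100.6, 103 and 100.2 CPM in controls and 177, 181 and 219 CPM under pressure (0.92 ± 0.092, adjusted p = 9.01e-06). The groups were separate for each of these genes, with Nop58 highest in pressure library 1 and Fbl and Nop56 highest in library 3. Nhp2l1, which binds the kink-turn of these RNAs and is outside the naming rule, changed by 0.67 ± 0.071.

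The 4 box H/ACA genes, whose particles guide pseudouridylation and also hold the telomerase RNA, gave 3 rises of less than 2-fold and a fall, that of Nop10. Over all genes 33.7% were called higher and 35.1% lower. The difference between the 2 snoRNP classes was not tested. Nhp2, the RNA-binding subunit, had 65.9, 68.8 and 62.8 CPM in controls and 99.9, 97.2 and 113 CPM under pressure (0.65 ± 0.085, adjusted p = 6.00e-05). Dkc1, the pseudouridine synthase dyskerin, had 71.7, 72.1 and 72.6 CPM in controls and 94.8, 93.7 and 82.5 CPM under pressure (0.33 ± 0.080, adjusted p = 0.00406). Gar1 had 52.2, 53.5 and 56.6 CPM in controls and 64.4, 62.1 and 72.7 CPM under pressure (0.295 ± 0.087, adjusted p = 0.0109). Leaving out control replicate 1 ended the Gar1 call (adjusted p = 0.0593). With library totals only Dkc1 stood at 0.11 and Gar1 at 0.082, neither called. Nop10, the smallest subunit, which touches dyskerin directly, fell from 31.6, 36.9 and 33.2 CPM to 22.5, 23.8 and 23.3 CPM (-0.55 ± 0.094, adjusted p = 4.12e-04). Its fall was called under all 4 scalings and in each fit that left out a library (adjusted p at most 0.00333).

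**Figure D2:**
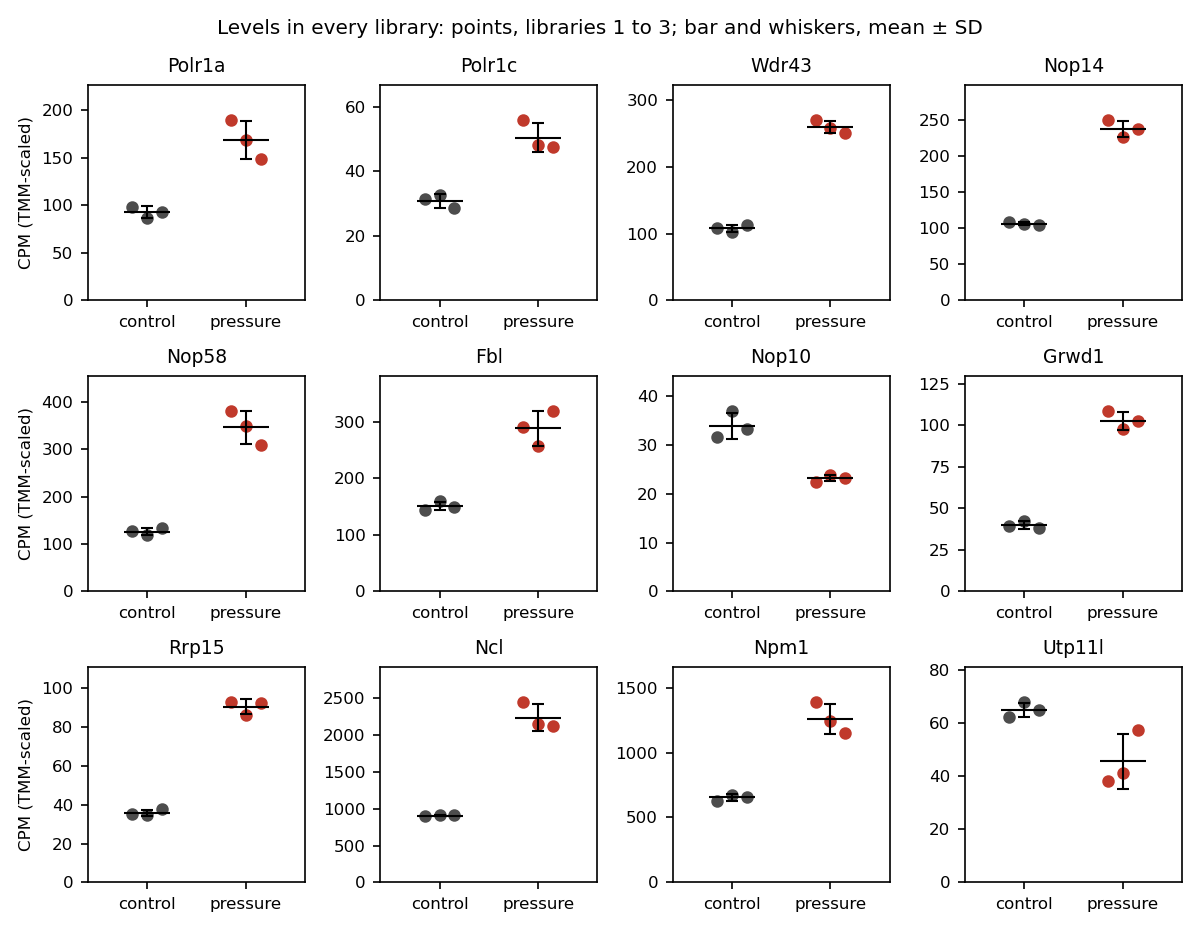
Level in CPM (vertical axes, each from 0) of 12 genes in the 3 control and 3 pressure libraries; points are libraries in the order 1 to 3, and bars with whiskers are the mean ± SD (n = 3). The groups do not overlap in any panel, and Nop10 and Utp11l are the genes that are lower under pressure.

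With TMM factors large-subunit genes rose in 14 of 17 and fell in none, with a median of 0.80. Over all genes 33.7% were called higher and 35.1% lower. Upper-quartile factors gave 14 higher and 1 lower. Library totals only gave 13 and 1, with a median of 0.59, beside 24.3% of all genes called higher. Grwd1, a chaperone for a ribosomal protein, went from 39.3, 42.4 and 37.9 CPM to 108, 97.5 and 102 CPM (1.36 ± 0.082, adjusted p = 3.71e-07). Rrp15 had 35.4, 34.5 and 37.5 CPM in controls and 92.6, 86.1 and 92.5 CPM under pressure (1.34 ± 0.079, adjusted p = 3.34e-07). Rrs1, which helps to dock the 5S RNA particle, had 74.5, 74.3 and 72.2 CPM in controls and 196, 168 and 191 CPM under pressure (1.33 ± 0.082, adjusted p = 4.35e-07). All 3 rose by 2.5- to 2.6-fold with no overlap between groups.

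The 4 next in size, Nol12 (1.19 ± 0.096), the GTPase gene Gnl2 (1.18 ± 0.090), Nop2, which methylates the large ribosomal RNA (1.12 ± 0.087), and Gnl3, the GTPase nucleostemin (1.08 ± 0.089), also passed 2-fold. Nol9, a polynucleotide kinase that acts on the internal spacer of the precursor, changed by 0.82 ± 0.12 and its pressure libraries spread from 92.7 to 135 CPM. Wdr74 changed by 0.75 ± 0.10, Nop16 by 0.57 ± 0.081 and Ebna1bp2 by 0.46 ± 0.084. The 3 genes of the PeBoW complex, which is needed for processing of the 60S precursor, rose by differing amounts: Pes1 by 0.80 ± 0.070, Wdr12 by 0.45 ± 0.079 and Bop1 by 0.38 ± 0.084. The difference between these partners was not tested.

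Nol8, Rrp1 and Rrp1b were the large-subunit genes not called. Rrp1 was abundant, at 144, 157 and 136 CPM in controls and 118, 108 and 144 CPM under pressure (-0.24 ± 0.11, adjusted p = 0.0750). It was called lower with library totals only (-0.45, adjusted p = 0.00436), with upper-quartile factors (adjusted p = 0.0222), when no genes were filtered out, and without pressure library 3 (-0.36, adjusted p = 1.20e-04). Its paralog Rrp1b stood at 0.21 ± 0.12 (adjusted p = 0.124, and 0.0442 without pressure library 1), and Nol8 at 0.14 ± 0.084 (adjusted p = 0.160, and 0.0336 without pressure library 3).

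The multifunctional nucleolar proteins included the most abundant transcripts and all 4 rose, where 33.7% of all genes were called higher. Ncl, the histone chaperone and RNA-binding protein nucleolin, had 901, 909 and 909.6 CPM in controls and 2439, 2152 and 2116 CPM under pressure (1.30 ± 0.069, adjusted p = 1.89e-07). Npm1, nucleophosmin, which forms the outer phase of the nucleolus, had 627.5, 675 and 660.1 CPM in controls and 1386, 1242 and 1152 CPM under pressure (0.95 ± 0.078, adjusted p = 2.44e-06). Nolc1, the snoRNP chaperone Nopp140, had 123, 119 and 118 CPM in controls and 263, 229.5 and 233 CPM under pressure (1.01 ± 0.078, adjusted p = 1.68e-06). In each of them pressure library 1 was the highest. Rrp8, a nucleolar methyltransferase, rose by 0.33 ± 0.082, which totals alone brought to 0.12 (adjusted p = 0.252).

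Of the matched genes not known as assembly factors, Nol4l gave the lowest fold change of the set. It had 23.8, 22.5 and 24.9 CPM in controls and 9.16, 9.91 and 9.83 CPM under pressure (-1.30 ± 0.10, adjusted p = 1.80e-06). Nol3, an inhibitor of apoptosis, overlapped between the groups (0.36 ± 0.17, adjusted p = 0.0813, and 0.0411 without pressure library 2). Without Nol3, Nol4 and Nol4l, 46 of 55 rose and 2 fell, with a median of 0.68, beside 33.7% of all genes higher and 35.1% lower.

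**Figure D3:**
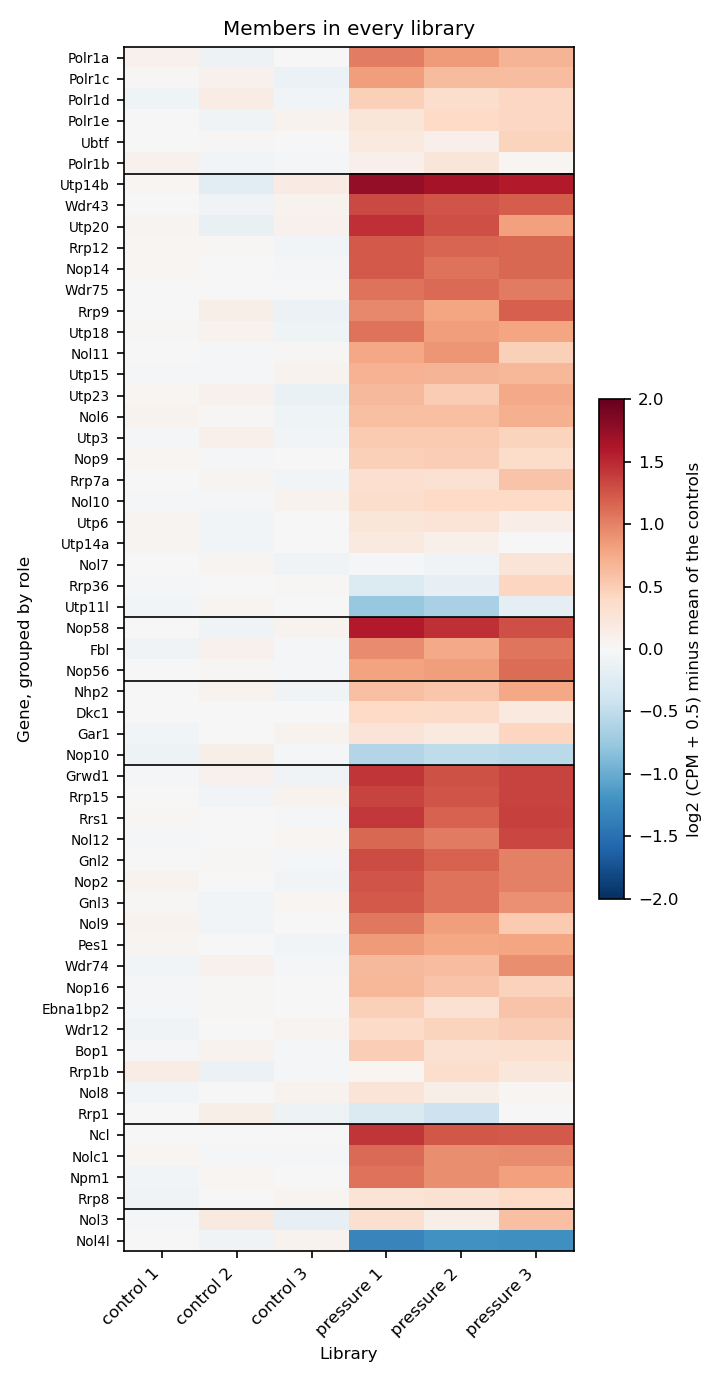
Each row is a tested gene and each column a library; colour is log2 (CPM + 0.5) minus the mean of the 3 controls, and black lines part the roles in the order polymerase I, small subunit, box C/D, box H/ACA, large subunit, nucleolar and name match only. Pressure library 3 is paler than libraries 1 and 2 for Utp20, Nol9 and Nol11 and stands to the red side of them for Rrp36, Utp11l, Nol7 and Rrp1.

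Pressure library 3 correlated less with the other treated libraries over all genes (r of log2 CPM 0.989 and 0.991, against 0.996 between libraries 1 and 2). As a whole the set was at the same height in it: the median difference from the control mean was 0.65, 0.60 and 0.62 (log2) in pressure libraries 1, 2 and 3. Single members moved by between -0.55 (Utp20) and 0.64 (Rrp36) against the mean of the other treated libraries, 31 downwards and 26 upwards. The 19 members with the longest exonic sequence (4775 to 11955 bases) had a median difference of -0.11 in that library and the 19 shortest (1109 to 3024 bases) of 0.0078; across the 57 genes, which share the same libraries, Spearman's rho with length was -0.30. The log2 fold change itself hardly went with length (rho 0.070, n = 57 genes). Without pressure library 3, 47 members were higher and 5 lower, the added falls being Rrp1 and Rrp36. Calls over all genes grew as well, from 4347 to 4780 higher and from 4524 to 4966 lower.

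Levels of different genes can be compared only per length, here as CPM per kilobase of annotated exon. Npm1 stood first in controls (245.5 ± 9.13, n = 3), followed by Ncl (89.0 ± 0.462), Nhp2 (57.4 ± 2.61), Pes1 (49.9 ± 1.92), Rrp1 (43.6 ± 3.20), Nop14 (38.9 ± 0.916), Utp3 (37.4 ± 2.16), Rrs1 (36.0 ± 0.615) and Fbl (35.9 ± 1.88). Neighbours from Nop14 down to Fbl differed by less than the spread between libraries. Under pressure the order behind Npm1 (473 ± 44.3) and Ncl (219 ± 17.4) was Rrs1 (90.3 ± 7.35), Nhp2 (90.3 ± 7.47), Pes1 (87.1 ± 2.63) and Nop14 (86.9 ± 4.196), again within their spread, and Rrp1 stood at 37.1 ± 5.56. The polymerase I genes sat below these leading genes, from 3.81 (Polr1e) to 26.0 (Polr1d) in controls. Many small- and large-subunit genes lay in the same range, such as Utp20 (9.05) and Nol12 (6.43). Utp14b was the lowest assembly gene (0.823 ± 0.119). Annotated exon length counts all isoforms, so these levels are approximate. The fold change did not follow the control level (rho 0.13 over the 57 genes).

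**Figure D4:**
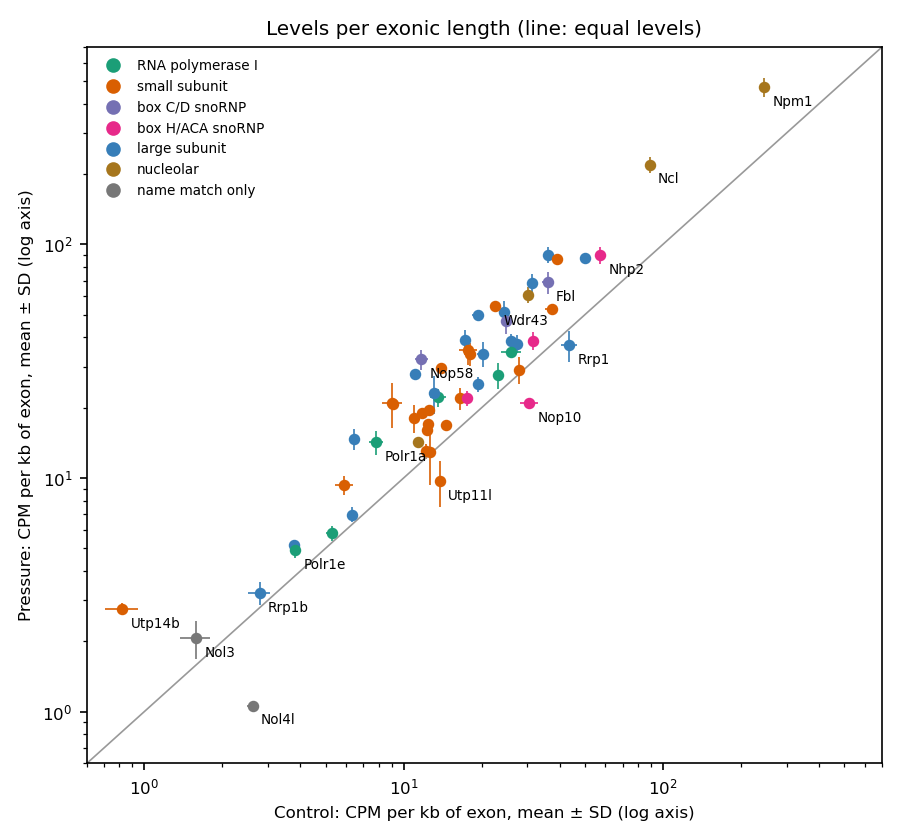
Mean level per kilobase of exon in controls (horizontal axis) and under pressure (vertical axis), both on log axes, for the 57 tested genes coloured by role; whiskers are the SD over 3 libraries and the line marks equal levels. Npm1 and Ncl lie at the upper right, and Nop10, Rrp1, Utp11l and Nol4l lie under the line.

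Genes of the MYC network changed as well. Myc itself had 138, 133 and 121 CPM in controls and 541, 529 and 512 CPM under pressure (2.02 ± 0.075), and its partner Max 103, 106 and 98.1 CPM in controls and 184.5, 179 and 178 CPM under pressure (0.82 ± 0.072). The antagonists Mxi1 (-0.74 ± 0.088) and Mnt (-0.67 ± 0.096) fell, Mxd1 rose by 0.45 ± 0.12 (adjusted p = 0.0921 with totals alone), and Mxd4 stood at -0.23 ± 0.086, a call (adjusted p = 0.0344) lost with DESeq2 (0.0787), RLE factors (0.0518), the replicate block (0.0892) and in 5 of the 6 fits that left out a library (0.0544 to 0.0954). Mycn was called higher too (3.93 ± 0.42, adjusted p = 1.54e-05), but near the floor. It had 0.15, 0.053 and 0.066 CPM in controls and 1.745, 1.34 and 1.47 CPM under pressure. Whether the changes of the network have a part in those of the assembly genes was not tested. Proliferation markers did not move together: Mki67 rose from 2.80, 1.65 and 2.97 CPM to 6.54, 6.69 and 4.26 CPM, Top2a and Cdk1 fell, and the 5 genes summed to 6.08 to 6.99 CPM in controls and 6.55 to 9.97 CPM under pressure.

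In the GENCODE M21 annotation of GRCm38, 6 of the 57 genes hold snoRNA genes within their own transcribed span on the same strand, 19 in all: Nop56 holds 5, Nop58 4, Ncl, Gnl3 and Wdr43 3 each, and Dkc1 1. All 6 host genes rose, with a median of 1.17, and of the other 51 members 40 rose, with a median of 0.64. Over all genes tested 33.7% were called higher. The difference between the host genes and the other members was not tested. These libraries were made from polyadenylated RNA, and the snoRNAs themselves were not analysed here.

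A protein-coding gene starts head to head with 12 of the members, within 1000 bases upstream. Of the 10 such partners that were tested, 4 were called lower, 2 higher and 4 not at all. Over all genes 35.1% were called lower and 33.7% higher, so the partners' falls were near the share of all genes. Nop9 (0.45) and Dhrs1 (-0.77, adjusted p = 2.08e-05), whose annotated starts lie 3 bases apart, were called in opposite directions, and so were Utp15 and Ankra2 (33 bases, -0.67), Nop16 and Higd2a (117 bases, -0.53) and Nop14 and Grk4 (231 bases, -1.23). Mbtd1, 86 bases from Utp18, rose (0.80), as did Ptcd3, 303 bases from Polr1a (0.26). Partners of Bop1, Polr1c, Polr1d and Nol8 were not called, and those of Ebna1bp2 and Nol9 were not tested.

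Exons of 16 members overlap exons of another protein-coding gene, on the opposite strand except for Utp14b. The counting's strand setting is not given in the sources used here, so reads there cannot be told apart. The longest such overlaps among the tested assembly genes were those of Nop9 with Cideb (1136 bases, Cideb 1.22), Rrp7a with Serhl (678 bases, Serhl 0.16, adjusted p = 0.304) and Nol7 with Ranbp9 (453 bases, Ranbp9 0.44). Deposited counts held fractions for 31 of the 58 members in at least 1 library, among them Npm1, Fbl and Nop56.

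The rest of the assembly pathway, 116 listed genes outside the naming rule, gave 88 higher (75.9%) and 8 lower (6.90%). The median was 0.62, and these values were close to those of the set. Of all genes tested, 33.7% were called higher and 35.1% lower. Nmd3, the export adaptor of the 60S subunit, had 38.2, 41.0 and 41.3 CPM in controls and 215, 196 and 182 CPM under pressure (2.30 ± 0.088, adjusted p = 3.74e-08), a larger change than that of any member. Nifk, a nucleolar partner of the Ki-67 protein, changed by 1.59 ± 0.091 and the helicase Ddx10 by 1.56 ± 0.090. Among 13 DEAD- and DEAH-box helicases of the pathway 11 rose and none fell. The falls with the smallest p outside the set were those of Exosc7 (-1.10 ± 0.18), Trmt112, a methyltransferase activator (-0.79 ± 0.12) and of Ttf1. Subunits of the exosome, which trims the precursor's 3′ ends, were divided: Exosc1, Exosc2 and Exosc10 rose, Exosc7, Exosc8 and Exosc9 fell, and 3 of 9 were not called. Calls over all genes were divided in a similar way (33.7% and 35.1%). The falls of Exosc8 and Exosc9 lost their calls without control replicate 2 (adjusted p = 0.0614 and 0.0668), that of Exosc9 also without pressure library 1 or 2 (0.0559 and 0.0633), and the rise of Exosc1 with totals alone (adjusted p = 0.217).

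**Figure D5:**
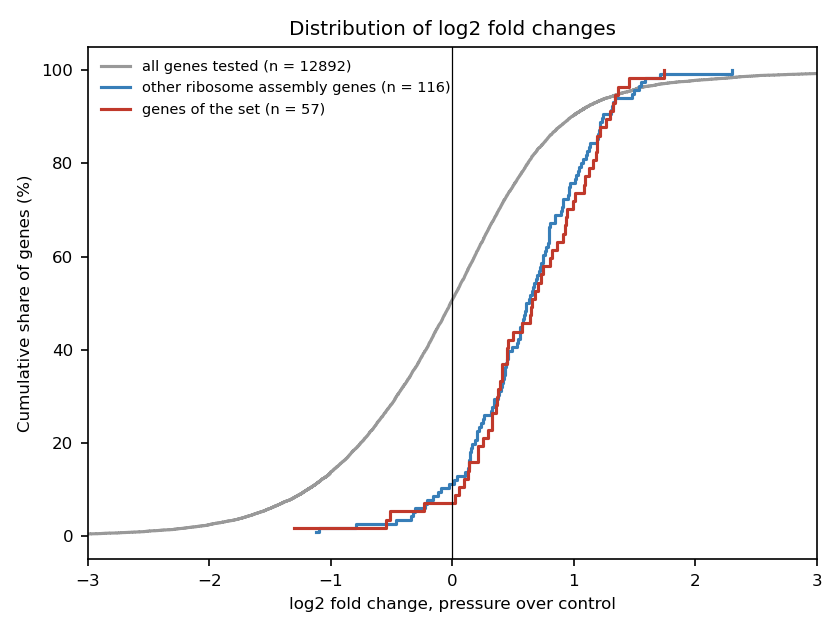
Cumulative share of genes (vertical axis, percent) against log2 fold change of pressure over control (horizontal axis, cropped at -3 and 3) for all genes tested, the 116 other ribosome assembly genes and the 57 genes of the set. The curves of the latter lie to the right of that of all genes at the middle of their ranges, with medians of 0.62 and 0.65 against -0.015.

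The proteins of the ribosome itself did not show the same counts. Of 83 tested cytosolic ribosomal protein genes 36 rose (43.4%) and 3 fell (3.61%), with a median of 0.18. With library totals only the median turned to -0.032 (5 higher and 8 lower, or 6.02% higher beside 24.3% of all genes). Of 77 mitochondrial ones 20 rose (26.0%) and 28 fell (36.4%), with a median of -0.10. Over all genes tested 33.7% rose and 35.1% fell, so the mitochondrial falls were near the share of all genes. These lists were taken by symbol after the data were seen, many ribosomal protein genes have near-identical copies, and no test of the difference from the assembly genes was made.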

How the data were processed

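Polyadenylated RNA of 3 control and 3 pressure samples was read as single reads of 101 bases from a stranded kit, per the labels' protocols. The values the authors deposited are expected counts per gene symbol, some of them fractional. TopHat2 2.2.1, Cufflinks 2.2.1 and the build mm10 are named in the submitters' processing notes without a role; neither the counter nor its strand setting or gene models is named there or in the labels.

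Counts were rounded, and filterByExpr (at least 10 counts, 15 in total) left 12892 of 24421 genes. Groups follow the sample titles. They were compared in R 4.3.3 with edgeR 4.0.16 (quasi-likelihood, two-sided, no covariates), using TMM factors (0.9094 to 1.083) and Benjamini-Hochberg adjustment over all genes tested; the threshold was 0.05. A standard error is the log2 fold change divided by the square root of F. The fit was tested on simulated data.

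The members and lists were chosen with earlier results of these data known, so their counts and medians are descriptions without a set test. Values by library are given for, in each role, up to 3 called genes per direction with the smallest p, the most abundant per length, and genes chosen after their values were seen. Alternatives were other scaling factors (RLE, upper-quartile, none), DESeq2 1.42.0, other filters, stricter thresholds, the sample number as a block, library sizes that omit the 50 top genes, and dropping each sample in turn. Exonic lengths came from GENCODE M21 (99.2% of tested genes matched).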

Additional observations from a re-analysis of the deposited data

How the results depend on the processing

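DESeq2, RLE factors, a minimum mean of 5 CPM and library sizes without the 50 most abundant genes changed no call among the 57 genes. The median log2 fold change of the set moved from 0.65 to 0.54 with upper-quartile factors and to 0.44 with library totals only, and that of the other assembly genes from 0.62 to 0.51 and 0.41. Requiring a log2 fold change of at least 1 left 16 members higher and 1 lower, beside 1243 and 1763 of all 12892 genes. An adjusted p of 0.01 left 43 members higher and 3 lower. When each sample was left out in turn, 43 to 47 members were higher and 3 to 5 lower, with medians from 0.62 to 0.69. Over all genes the same fits called 3887 to 4780 higher and 4094 to 4966 lower. Of the other assembly genes 4 (without control replicate 2) to 11 (without pressure replicate 3) were lower, and their median reached 0.65 at most. Rrp36, at 0.021, ranged from -0.22 (without pressure replicate 3, adjusted p = 0.0382) to 0.15. The controls and treated samples share replicate numbers, and the labels give no pairing. Deviations of same-numbered samples correlated at 0.17, -0.30 and -0.18, and those of differently numbered samples at -0.22 to 0.37. With 3 samples per group such values can neither show nor exclude a pairing. With the replicate block 44 members were higher and 3 lower, Utp6 and Ubtf losing their calls, and 85 and 7 of the other assembly genes. That fit called 4069 of all genes higher and 4315 lower. Nol3, with the lowest level, had the largest standard error of the 57 genes (0.17).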
